A study of Mus musculus with 2 samples.

Results

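Described here are 7 genes for ion channels and ion pumps of the muscle membrane, out of 15508 annotated genes with at least 1 read in the gastrocnemius. They are Clcn1, Scn4a, Kcna7, Kcnj11, Abcc9, Atp1b1 and Fxyd1. They were chosen by gene name and not by any measured value, and every transcript model that the tables give to 1 of these names was taken, which came to 109 of 72469 models in replicate 1 and 118 of 88667 in replicate 2. All 7 had reads in both libraries and at least 10 reads in sum, the minimum for the test between libraries.

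The samples were gastrocnemius, a calf muscle, taken at the age of 36 days from male mice of B6CASTF1/J, an F1 hybrid of the strains C57BL/6J and CAST/EiJ, with no treatment named. They form 1 group, and 2 µg of RNA from each of the 2 biological replicates was sequenced as long reads. The labels name different males but give both samples the same donor entry, so the spread between libraries may be biological or technical. With 1 group there is no comparison of conditions, and each difference given here is between the 2 libraries.

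A muscle fibre is excited when voltage-gated sodium channels open, and potassium and chloride channels then bring the membrane back to rest. The sodium-potassium pump restores the ion gradients and is held back by the small protein of Fxyd1, phospholemman, until that protein is phosphorylated. Loss of chloride conductance in muscle causes myotonia, and mutations of the muscle sodium channel cause periodic paralysis. ATP-sensitive potassium channels, built from a pore and a sulfonylurea receptor, open when the energy supply of the fibre falls.

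Replicate 1 held 1036455 reads in annotated genes and replicate 2 held 1374068, and levels are given as CPM, these reads scaled to a common total of 1000000. A gene without reads may still be present below 3 reads, which is 2.89 CPM in the first library and 2.18 CPM in the other. A long read was taken as 1 copy of a transcript whatever its length, so levels of different genes are compared on reads and not per base. Counts still varied with length between the libraries. The median log2 ratio of replicate 2 over replicate 1 was 0.64 for genes with models under 1000 bases. It was -0.75 for genes with models of 3000 to 5000 bases. The part of length in the order of the genes was not tested. Intervals for shares are Wilson 95% intervals per library and cover counting error only. Positions are on mm10, with exons and transcript names from GENCODE M21. The 8 skeletal fibre markers summed to 297084 and 211155 CPM, while of 4 heart muscle markers 1 had any read, a single read of Myh6.

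By CPM, the genes fell into a clear order at the top and a partly resolved one below. Fxyd1 stood first with 1770 CPM (1835 reads) in replicate 1 and 4368 CPM (6002 reads) in replicate 2, which placed it 30th of all genes by mean level. Kcnj11, the pore of the ATP-sensitive potassium channel, followed with 96.5 and 201 CPM (100 and 276 reads). Scn4a, the pore-forming subunit of the muscle sodium channel, had 79.1 and 58.2 CPM (82 and 80 reads). The libraries of each of these genes lay apart from those of its neighbours in the order. No test between genes was run, and in replicate 1 Kcnj11 and Scn4a had similar counts, 100 and 82 reads. Atp1b1, a beta subunit of the sodium-potassium pump, had 39.6 and 34.9 CPM (41 and 48 reads). Abcc9, the sulfonylurea receptor SUR2, had 47.3 and 21.1 CPM (49 and 29 reads), a range that encloses both values of Atp1b1. Clcn1, the chloride channel of muscle, had 24.1 and 11.6 CPM (25 and 16 reads), and its range overlapped that of Abcc9. Kcna7, a voltage-gated potassium channel, had 21.2 and 4.37 CPM (22 and 6 reads). Both values of Atp1b1 lay above both of Clcn1 and of Kcna7. The ranges of Abcc9, Clcn1 and Kcna7 overlapped, so these were not ordered beyond the spread between libraries.

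**Figure D1:**
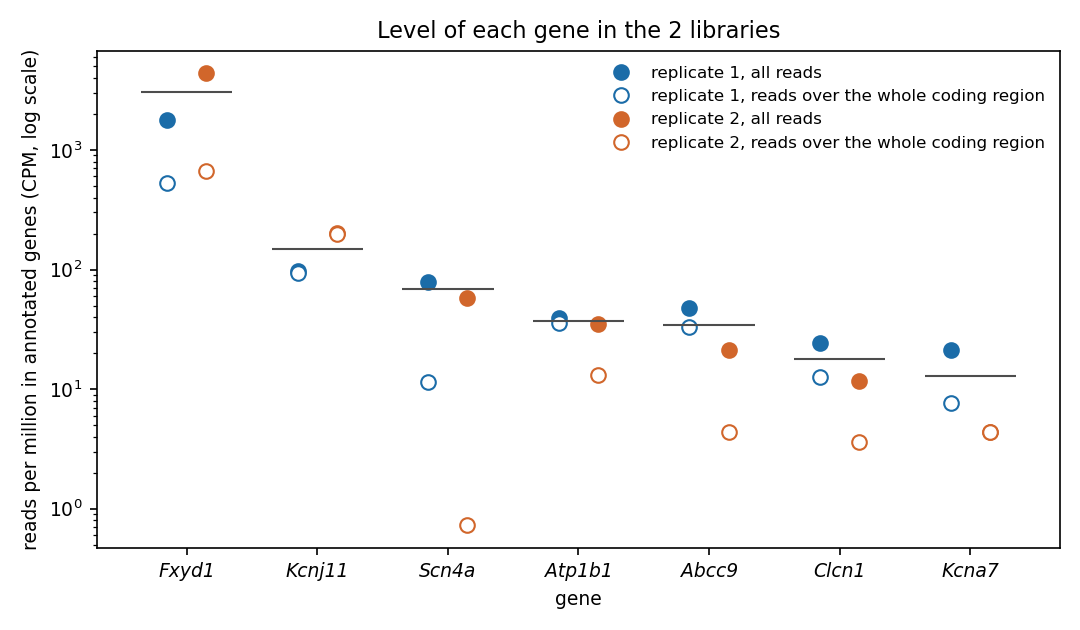
Level of each gene in CPM (log axis) in replicate 1 (blue) and replicate 2 (orange). Filled points count all reads of the gene, and the line is their mean. Open points count only reads whose model spans the whole annotated coding region. For Kcnj11 that model has a single exon and does not show how complete the reads were. Fxyd1 lies above 1770 CPM in both libraries, and the open points of Scn4a lie at 11.6 and 0.728 CPM, far below its filled points.

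The level that could encode the whole protein was lower and ordered differently. Reads whose model spanned the annotated coding region from start to end gave 597 ± 102 CPM (SD, n = 2) for Fxyd1 and 145 ± 72.8 CPM for Kcnj11. The value for Kcnj11 rests on a single-exon model, which cannot show how complete its reads were, so it is not measured like those of the spliced genes. Atp1b1 followed with 24.4 ± 16.0 CPM, Abcc9 with 18.6 ± 20.1 CPM and Clcn1 with 8.09 ± 6.30 CPM. Scn4a dropped from the third place by all reads, behind Kcnj11, to 6.15 ± 7.67 CPM, close to Kcna7 at 6.04 ± 2.37 CPM. Atp1b1, at 35.7 and 13.1 CPM, lay above Clcn1, Scn4a and Kcna7 in both libraries. The ranges of Abcc9, Clcn1, Scn4a and Kcna7 overlapped, and their order was not resolved.

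The class that the tables give each read shows in part where the 2 measures differ. Annotated models match a GENCODE transcript, incomplete matches hold part of one, new-combination and new-junction models are spliced in an unannotated way, and genomic models fit no annotated splicing. Over all annotated genes, 69.5% of reads in replicate 1 and 67.6% in replicate 2 were in annotated models and 3.47% and 8.23% in genomic ones. Kcnj11 (100% and 98.6% annotated) and Fxyd1 (85.8% and 84.7%) were above that level in both libraries. An annotated model need not hold the whole coding region, and only 29.6% and 15.3% of the reads of Fxyd1 spanned it. Scn4a was far below it, with 2.44% and 0% (Wilson upper bound 4.58%), and had 58.5% (interval 47.7 to 68.6%) and 95.0% (87.8 to 98.0%) of its reads in genomic models. Atp1b1 went from 90.2% annotated in replicate 1 to 35.4% in replicate 2, and its genomic share from 7.32% to 60.4%. Abcc9 went from 46.9% to 17.2% annotated and Clcn1 from 56.0% to 25.0%.

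**Figure D2:**
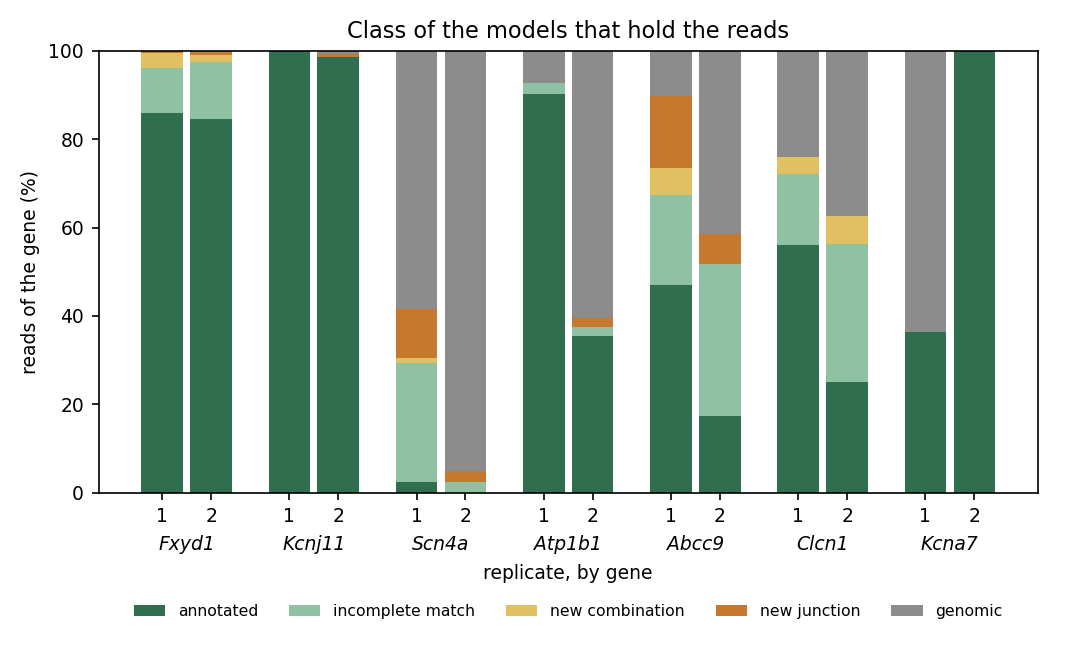
Share of the reads of each gene in each class of transcript model, as stacked bars that sum to 100%, with replicate 1 and replicate 2 side by side. Genomic models (grey) take 58.5% and 95.0% of the reads of Scn4a, and their share in Atp1b1 is 7.32% in replicate 1 and 60.4% in replicate 2.

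Atp1b1 (ENSMUSG00000026576.12, chr1:164437109-164458355, minus strand) encodes a beta subunit, the glycosylated partner that carries the catalytic alpha subunit of the pump to the cell surface. Its reads were mainly of 2 kinds. Atp1b1-201, the annotated transcript of 6 exons and 2580 bases, held 37 of 41 reads in replicate 1 and 17 of 48 in replicate 2. An unspliced model of 617 bases within the last exon, at its 3′ end (chr1:164437109-164437725) held 27 reads in replicate 2. Of the spliced reads, 37 of 38 and 18 of 19 spanned the 5′-most intron, so spliced reads were nearly all complete in both libraries.

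Atp1b1 had fewer reads than another beta subunit in both libraries. Atp1b2 had 394 and 308 reads, 9.61 times as many as Atp1b1 in replicate 1 (exact binomial 95% interval 6.96 to 13.6) and 6.42 times in replicate 2 (4.72 to 8.89). Without incomplete and genomic models the ratio was 9.57 and 12.3. Atp1b3 had 29 and 58 reads, 0.707 and 1.21 times the reads of Atp1b1, and both intervals (0.424 to 1.17 and 0.810 to 1.81) included equality. Without those models it was 0.459 and 0.667.

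Fxyd1 (ENSMUSG00000036570.14, chr7:31051678-31057199, minus strand) encodes phospholemman, a small membrane protein that binds the pump. Its main 8-exon transcripts, Fxyd1-212 and Fxyd1-203, share 1 coding region of 276 bases, which is shown here spliced (chr7:31051968-31054366, read from GENCODE Fxyd1-212) because most reads held only its end. Capitals mark the 70 bases that lie in exons of the leading model and are all of the coding region that such a read covers.
Fxyd1 coding region: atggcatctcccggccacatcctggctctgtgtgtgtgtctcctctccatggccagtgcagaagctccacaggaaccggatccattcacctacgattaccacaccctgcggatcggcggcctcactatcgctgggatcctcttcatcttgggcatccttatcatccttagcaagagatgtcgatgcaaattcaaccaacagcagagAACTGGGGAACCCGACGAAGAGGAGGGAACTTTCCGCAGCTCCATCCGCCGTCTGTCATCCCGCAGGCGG

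The leading model of Fxyd1 was Fxyd1-213, annotated as a retained-intron transcript of 3 exons and 255 bases. It held 1124 of 1835 reads (61.3%, interval 59.0 to 63.5%) in replicate 1 and 4318 of 6002 (71.9%, 70.8 to 73.1%) in replicate 2. An incomplete match of 224 bases that ends at the same 5′ position held 122 and 575 reads. In all, 70.1% (68.0 to 72.2%) and 84.5% (83.5 to 85.4%) of reads reached no further 5′ than Fxyd1-213. Its splice junctions are also the last 2 junctions of the full coding transcripts, so a fragment of those and a true Fxyd1-213 transcript cannot be told apart by junctions.

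The transcripts with the whole coding region were a minority of the reads of Fxyd1 but large in number. They made up 544 reads (29.6%, 27.6 to 31.8%) in replicate 1 and 919 reads (15.3%, 14.4 to 16.2%) in replicate 2. Fxyd1-212, with 8 exons and 568 bases, held 209 and 313 reads. Fxyd1-203, also with 8 exons but 492 bases, held 164 (8.94%) and 298 reads (4.97%). The largest change along the gene was 1 step: 1832 and 5992 spliced reads spanned the next-to-last intron, and 548 and 932 the intron upstream of it. A smaller step came at the 5′-most intron of Fxyd1-212, spanned by 275 and 421 reads against 544 and 919 at the intron before it.

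Reads that reached the 5′ end of Fxyd1 mostly began in 1 of 2 first exons, which differ only upstream of the coding region. The distal one (chr7:31055551-31055667, 117 bases) was used by 275 of 518 such reads (53.1%, 48.8 to 57.3%) in replicate 1 and 419 of 884 (47.4%, 44.1 to 50.7%) in replicate 2. The proximal one (chr7:31054765-31054807, 43 bases) was used by 209 (40.3%, 36.2 to 44.6%) and 405 reads (45.8%, 42.6 to 49.1%). The intervals of the 2 libraries overlapped for either exon. RefSeq (GRCm38.p6) places the start of the gene near the proximal exon. Its promoter window (chr7:31054804-31055103, minus strand, 250 bases before to 50 after the RefSeq start) holds only 4 bases of that exon. It is shown because a sizeable part of the reads that reached the 5′ end began in the proximal exon. Capitals mark the only match to TATAAA on either strand, here read as TTTATA.
Fxyd1 promoter window: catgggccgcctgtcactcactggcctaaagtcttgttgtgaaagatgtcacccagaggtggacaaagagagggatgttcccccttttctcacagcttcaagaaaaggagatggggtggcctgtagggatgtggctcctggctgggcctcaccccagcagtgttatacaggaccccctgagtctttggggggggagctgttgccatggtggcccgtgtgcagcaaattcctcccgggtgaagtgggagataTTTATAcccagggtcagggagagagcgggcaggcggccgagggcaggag

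The match begins 45 bases upstream of the first base of Fxyd1-203 and 33 bases upstream of that of Fxyd1-202, which starts nearby. TATAAA on either strand occurs in 13.6% of the 32851 RefSeq promoter windows of this length, and among the 6 of the 7 genes that the table lists it occurs in Clcn1 and Fxyd1. At the other end of Fxyd1, an annotated acceptor that shortens the last exon from 134 to 99 bases was used in 9.12% (7.89 to 10.5%) and 11.1% (10.3 to 11.9%) of reads over the last intron. Without incomplete and genomic models this share was 2.68% (44 of 1641 reads) and 1.55% (81 of 5219), which turned the direction between the libraries. That filter did not act alike on the acceptors. Reads with the shortened exon fell from 167 to 44 and from 663 to 81. Those with the exon of 134 bases fell only from 1599 to 1576 and from 5137 to 5103. By these counts the removed incomplete match of 224 bases (122 and 575 reads) has the shortened exon. The leading model is annotated and stayed. The filtered shares therefore cannot show the use of this acceptor or its direction between the libraries. The last intron lies beyond the coding region. Reads that joined Fxyd1 to exons of its neighbour Fxyd7 were rare, at 3 and 1.

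Of the relatives of Fxyd1, Fxyd6 had 36 and 59 reads, Fxyd5 13 and 10, and Fxyd2 4 and 7. Fxyd1 thus had more reads than each of them by a wide margin in both libraries.

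Scn4a (ENSMUSG00000001027.7, chr11:106318592-106353288, minus strand) encodes Nav1.4, the channel that carries the action potential of the fibre. Most of its reads came from the 3′ end alone. Unspliced reads at the 3′ end made up 47 of 82 reads in replicate 1 (a model of 1919 bases) and 76 of 80 in replicate 2 (2069 bases). These ended at chr11:106317540, which is 1052 bases past the annotated 3′ end of the gene. In replicate 1, 78 of 82 reads that reached the last exon ran past the annotated end, and in replicate 2 all 79 did.

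Complete reads of Scn4a were few. The leading spliced model, an unannotated one of 25 exons and 8228 bases, held 7 reads in replicate 1, and an incomplete match of 11 exons held 5. Spliced reads numbered 35 and 4, and those spanning the introns fell off gradually towards the 5′ end, from 35 over the last intron to 18 about 4240 spliced bases from the annotated 3′ end and 12 at the 5′-most intron in replicate 1. In replicate 2 the numbers were 3 and 1. Reads over the whole coding region of 5523 bases were 12 of 82 (14.6%, 8.57 to 23.9%) and 1 of 80 (1.25%, 0.221 to 6.75%).

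**Figure D3:**
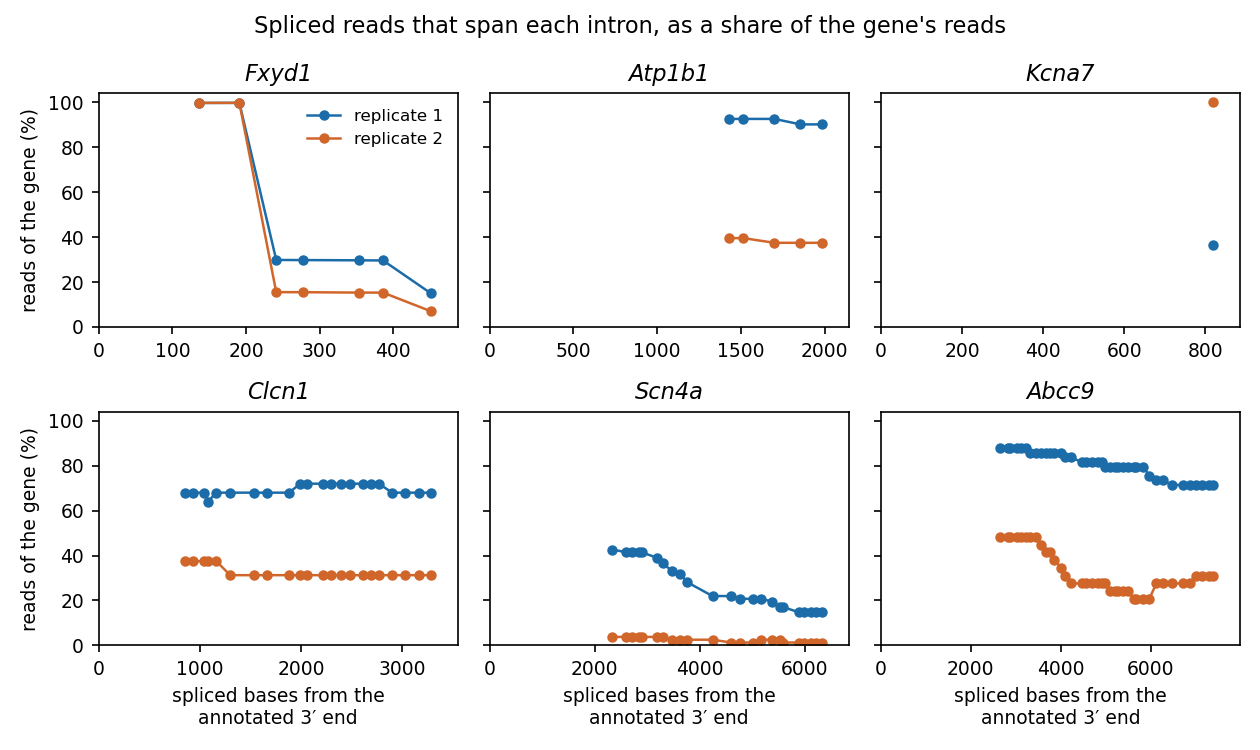
Spliced reads that span each intron of the main transcript, as a share of all reads of the gene, against the distance of the intron from the annotated 3′ end in spliced bases. Each point is 1 intron. Fxyd1 shows a large step past its last introns and a smaller one at the 5′-most intron. Scn4a declines from 35 to 12 reads in replicate 1, and Clcn1 stays nearly level. Kcnj11 is not drawn because nearly all of its reads had no intron.

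Most complete reads of Scn4a in replicate 1 began upstream of the annotated start. Of the 12 reads that reached the 5′ end in replicate 1, 9 (75.0%, 46.8 to 91.1%) were joined to an unannotated first exon at chr11:106365475-106365650, and the single such read of replicate 2 was too. This exon of 176 bases begins 12362 bases upstream of the annotated start of the gene and is spliced over an intron of 15683 bases to an exon of 675 bases (chr11:106349117-106349791) that holds the annotated start codon. The annotated first junction of Scn4a-202 was used by 0 of 12 reads (Wilson upper bound 24.2%) and by 0 of 1. All 176 bases of the new exon lie within the first exon of Prr29 (chr11:106365472-106365650), a gene on the opposite strand. The splice motif of the new junction was not checked here, so its strand rests on the tables alone. The exon of 675 bases covers the whole RefSeq promoter window of Scn4a (chr11:106349341-106349640), so in these reads that window was part of the transcript. The first 60 coding bases (chr11:106349330-106349389, GENCODE Scn4a-201) are shown because GENCODE starts this transcript at them, with the start codon in capitals.
Scn4a coding start: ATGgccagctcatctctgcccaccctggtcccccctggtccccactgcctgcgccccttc

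Scn4b, a beta subunit of sodium channels, had 32 and 43 reads. Of the 13 genes listed as sodium channels and partners, 7 had no read in either library, so each may lie anywhere below the limits of 2.89 and 2.18 CPM.

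Clcn1 (ENSMUSG00000029862.15, chr6:42286685-42315756, plus strand) encodes ClC-1, which carries most of the resting chloride current of muscle. Clcn1-201, with 23 exons and 3545 bases, was the leading model with 13 of 25 reads in replicate 1 and 4 of 16 in replicate 2. Spliced reads were mostly complete: 17 of 19 and 5 of 6 spanned the 5′-most intron. The other reads were unspliced, 6 in replicate 1, all in a genomic model of 1800 bases at the 3′ end (chr6:42313957-42315756), and 10 in replicate 2. Reads over the last exon ran past the end of Clcn1-201 in 8 of 23 (34.8%, 18.8 to 55.1%) and 7 of 16 (43.8%, 23.1 to 66.8%). Nearly all of these were in genomic or incomplete models, and without those it was 1 of 15 (6.67%) and 0 of 5 (Wilson upper bound 43.4%).

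Splicing of Clcn1 was near that of the coding transcript, with no unannotated junction in either library. The exon known as exon 7a, which brings in a premature stop and is kept in myotonic dystrophy, was kept in 1 of 18 reads (5.56%, 0.988 to 25.8%) in replicate 1 and 1 of 5 (20.0%, 3.62 to 62.4%) in replicate 2. The intervals overlap widely, and at this depth a share of several percent could not be told from a larger one. The exon (chr6:42293444-42293522, 79 bases, read from GENCODE Clcn1-207, annotated as a target of nonsense-mediated decay) leaves a remainder of 1 base when divided by 3, so it shifts the reading frame. The next exon is shown up to the stop that the shifted frame meets (chr6:42294078-42294097), in capitals.
Clcn1 exon 7a: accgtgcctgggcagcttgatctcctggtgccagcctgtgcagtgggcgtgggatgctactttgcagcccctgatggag
Clcn1 next exon to the stop: cagccatactattacacTGA

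Of the relatives of Clcn1, Clcn4, an exchanger of endosomes, had more reads in both libraries. It had 57 and 29 reads, 2.28 (1.40 to 3.81) and 1.81 (0.952 to 3.57) per read of Clcn1, and the interval of replicate 2 included equality. Without incomplete and genomic models the ratio was 1.13 in replicate 1 and 2.00 in replicate 2. Clcn3 had 15 and 10 reads and Clcn7, the lysosomal exchanger, 8 and 7, fewer than Clcn1 in both libraries.

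Kcnj11 (ENSMUSG00000096146.2, chr7:46093953-46100764, minus strand) encodes Kir6.2, the pore of the ATP-sensitive potassium channel. Nearly all of its reads were in 1 model, Kcnj11-205, whose single exon of 3142 bases holds the coding region of 1170 bases. It held 97 of 100 reads in replicate 1 and 269 of 276 in replicate 2, or 97.0% and 97.5%. A read without a junction gives no sign of how complete it is, since the tables give the ends of models and not of single reads, so the completeness of these reads cannot be judged as it was for the spliced genes. Kcnj11 had 9.09 (4.87 to 18.8) and 21.2 (12.2 to 40.4) reads per read of Kcnj8, the Kir6.1 pore found in vessels. Without incomplete and genomic models the ratio was 10 in replicate 1 (100 and 10 reads) and 34.3 in replicate 2 (274 and 8 reads). That filter hardly acts on Kcnj11, since its main model is annotated and has a single exon. Kcnj12, an inward rectifier that holds the resting potential, had 66 and 79 reads.

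Abcc9 (ENSMUSG00000030249.15, chr6:142587862-142702315, minus strand) encodes SUR2, the regulatory subunit that binds nucleotides and channel-opening drugs. Its transcripts end in either of 2 ways. Keeping an exon of 176 bases (chr6:142593967-142594142) gives SUR2A, known from heart and skeletal muscle, and skipping it gives SUR2B, known from smooth muscle. The last coding bases of the SUR2A form (chr6:142594005-142594142, GENCODE Abcc9-204) and of the SUR2B form (chr6:142590366-142590503, GENCODE Abcc9-203) are shown because this choice sets the end of the protein, with the stop codons in capitals. The 2 stretches have the same length, 138 bases, and are identical at 70 positions (50.7%).
SUR2A end: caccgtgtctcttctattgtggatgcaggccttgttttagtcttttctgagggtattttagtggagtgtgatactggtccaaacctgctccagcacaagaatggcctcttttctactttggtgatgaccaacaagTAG
SUR2B end: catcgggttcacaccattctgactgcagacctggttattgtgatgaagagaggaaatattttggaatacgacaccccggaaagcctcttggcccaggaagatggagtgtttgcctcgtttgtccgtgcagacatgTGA

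The SUR2A form made up nearly all of the informative reads of Abcc9. The SUR2A exon was kept in 40 of 43 reads (93.0%, 81.4 to 97.6%) in replicate 1 and in 14 of 14 (100%, 78.5 to 100%) in replicate 2, or 96.5% ± 4.93 (SD, n = 2). The SUR2B junction was in the other 3 reads of replicate 1. The 0 of 14 in replicate 2 allows a SUR2B share of up to 21.5%, the Wilson upper bound. Among these skeletal muscle samples, markers of smooth muscle and pericytes were present as well: all 8 had reads, with a total of 272 and 143 CPM in the 2 libraries. Their part in the level of Abcc9, which was 47.3 and 21.1 CPM, was not tested. In whole tissue, fewer cells of a type and less RNA per cell cannot be told apart.

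A further choice in Abcc9 is a cassette exon of 39 bases (chr6:142648027-142648065), which adds 13 codons within the coding region and is printed from GENCODE Abcc9-202 because a sizeable minority of reads kept it.
Abcc9 cassette exon: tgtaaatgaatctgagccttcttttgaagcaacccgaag

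This cassette exon was kept in 10 of 40 reads (25.0%, 14.2 to 40.2%) in replicate 1 and 1 of 7 (14.3%, 2.57 to 51.3%) in replicate 2. Since a read covers both choices, they can be seen together. In replicate 1, 29 SUR2A reads skipped the cassette exon and 8 kept it, while both SUR2B reads that reached it kept it. With 2 such reads no relation between the choices can be judged. The 105-base exon (chr6:142658498-142658602) that Abcc9-201 lacks was skipped in 0 of 39 and 0 of 7 reads, with Wilson upper bounds of 8.97% and 35.4%. The 3′ end of the gene was the distal one in 38 of 48 (79.2%, 65.7 to 88.3%) and 22 of 25 reads (88.0%, 70.0 to 95.8%).

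Complete reads of Abcc9 were common for so long a transcript in replicate 1. Abcc9-204, of 40 exons and 7499 bases, held 18 of 49 reads there and 3 of 29 in replicate 2. Abcc9-202, of 41 exons, held 5 reads and 1 read. Reads over the whole coding region of 4599 bases were 34 of 49 (69.4%, 55.5 to 80.5%) and 6 of 29 (20.7%, 9.85 to 38.4%), and these intervals did not overlap. In replicate 2 an unspliced model of 1785 bases over the last exon (chr6:142587862-142589646) held 11 reads. The pore Kcnj11 had 2.04 (1.44 to 2.93) reads per read of Abcc9 in replicate 1 and 9.52 (6.48 to 14.5) in replicate 2, so the ratio of pore to receptor was not stable between libraries. Without incomplete and genomic models it was 2.94 and 39.1, the latter from 274 and 7 reads. This filter left 100 of 100 and 274 of 276 reads of Kcnj11, whose main model is annotated and has a single exon. It left 34 of 49 and 7 of 29 reads of Abcc9, so the 2 genes were not filtered alike. Abcc8, the other sulfonylurea receptor, had 8 and 6 reads.

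**Figure D4:**
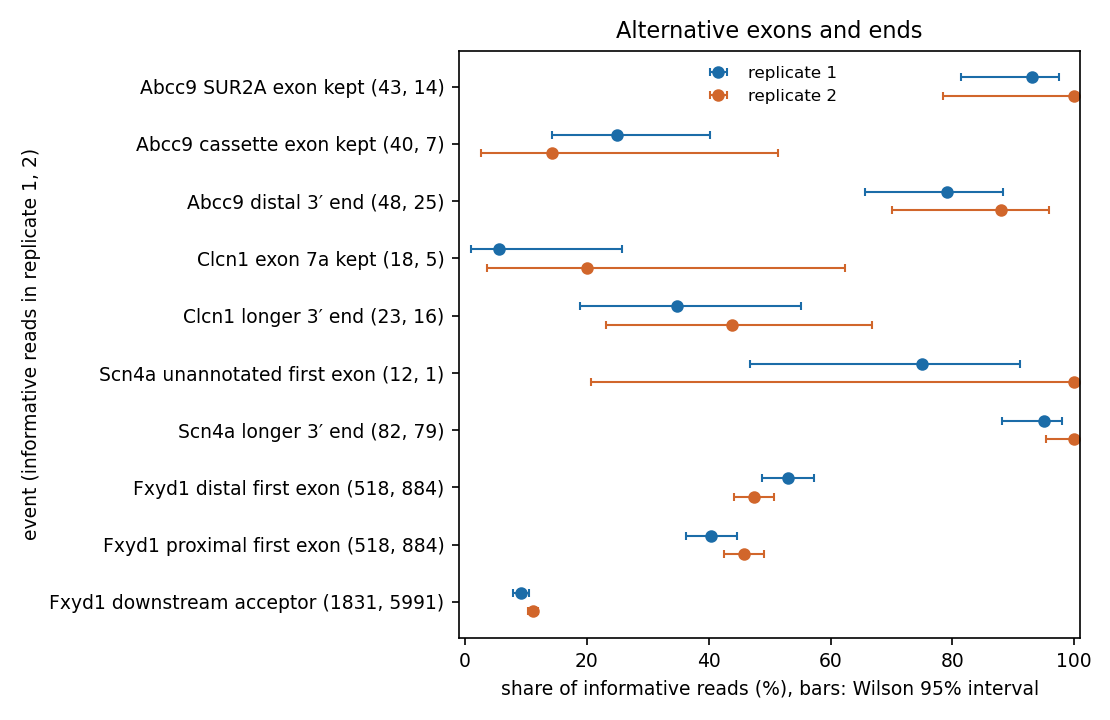
Share of informative reads that use each alternative exon or end, with Wilson 95% intervals, in replicate 1 (blue) and replicate 2 (orange). The numbers after each event are the informative reads in replicate 1 and 2. The SUR2A exon is kept in 93.0% and 100% of reads, and the 2 first exons of Fxyd1 lie between 40.3% and 53.1%.

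Kcna7 (ENSMUSG00000038201.10, chr7:45405653-45409763, plus strand) encodes Kv1.7, a delayed-rectifier subunit that helps repolarise the membrane. Its annotated transcript Kcna7-201, with 2 exons and 2182 bases, was spliced in 8 reads of replicate 1 and 6 of replicate 2. The other 14 reads of replicate 1 lay in a single-exon genomic model of 1885 bases that begins at the last base of the annotated gene (chr7:45409763-45411647). In replicate 2 the same stretch was called a separate intergenic locus of 1884 bases (chr7:45409763-45411646) with 54 reads, which the tables do not count for Kcna7. The annotated transcript ends just after its coding region, so this stretch lies directly downstream of it. Whether these reads belong to Kcna7 transcripts was not tested. Other voltage-gated subunits were Kcnc4 with 108 and 44 reads, Kcnc1 with 17 and 17, and Kcna5 with 9 and 3.

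The 2 libraries were then compared gene by gene with a two-sided exact binomial test of the 2 counts given the library totals. A gene was called at an adjusted p under 0.05 (Benjamini-Hochberg over all 8339 genes with at least 10 reads) and at least 2-fold. This test compares these libraries and carries no replicate error. Of the 7 genes, 4 were called, against 18.6% of all genes tested. Fxyd1 and Kcnj11 were higher in replicate 2, a direction called in 5.76% of genes, and Kcna7 and Abcc9 were higher in replicate 1, a direction called in 12.9%. The median log2 ratio of replicate 2 over replicate 1 was -0.44 for the 7 genes and -0.28 for all genes tested. TMM scaling moved the median of all genes to 0.01 and the calls over all genes from 1075 with more in replicate 1 and 480 with more in replicate 2 to 580 and 890, so the ratios below stand beside a median of -0.28.

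Fxyd1 had the smallest adjusted p of the genes described here, in a test that covers counting error only. Its log2 ratio was 1.30 (exact 95% interval 1.23 to 1.38, adjusted p = 5.71e-285 by the exact binomial test). Reads over its whole coding region differed less, with 525 and 669 CPM and a log2 ratio of 0.35, which ended the call at 2-fold (this alternative was chosen after seeing the data). Genes whose leading annotated model was under 1000 bases, as that of Fxyd1 is, had a median log2 ratio of 0.64 (983 genes). The part of length in the ratio of Fxyd1 was not tested.

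Kcnj11 had a log2 ratio of 1.05 (0.72 to 1.40, adjusted p = 1.04e-09 by the exact binomial test). It is in the group of genes with models of 3000 to 5000 bases, where the median log2 ratio was -0.75 (2105 genes) and 2.42% of genes were called higher in replicate 2. Kcnj11 therefore went against the direction of its length group. Single-exon models held 97.0% of its reads in replicate 1 and 98.2% in replicate 2. Over all annotated genes the share of single-exon models was 7.70% in replicate 1 and 16.5% in replicate 2. The part of this shift in the ratio of Kcnj11 was not tested.

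Kcna7 had a log2 ratio of -2.20 (-3.87 to -0.93, adjusted p = 0.00116 by the exact binomial test), but this rests on how the downstream stretch was assigned. With the neighbouring locus joined to it, Kcna7 had 22 and 60 reads and a log2 ratio of 1.02 (0.31 to 1.82, adjusted p = 0.0151 by the exact binomial test), which turned the direction (an alternative chosen after seeing the data). With its spliced reads alone the counts were 8 and 6, and the ratio was not called.

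Abcc9 had a log2 ratio of -1.15 (-1.88 to -0.47, adjusted p = 0.00309 by the exact binomial test). With TMM scaling it was -0.87 and with DESeq2 size factors -0.88, both short of 2-fold, so the call depended on the scaling. It was larger and called without incomplete and genomic models (-2.43, adjusted p = 1.86e-05 by the exact binomial test) and over the whole coding region (-2.81, adjusted p = 7.93e-07 by the exact binomial test, an alternative chosen after seeing the data). Clcn1 (-1.03, adjusted p = 0.0764), Scn4a (-0.44, adjusted p = 0.137) and Atp1b1 (-0.18, adjusted p = 0.747) were not called by the exact binomial test, and the ratio of Atp1b1 turned to 0.10 with TMM scaling. When only annotated, new-combination and new-junction models were counted, these 3 were called higher in replicate 1, with log2 ratios of -1.73, -2.55 and -1.25, against a median of -0.42 for all genes counted that way, of which 1280 of 6808 were called in that direction.

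Leading isoforms were compared by their share of reads, with Fisher's exact test, in genes that had 50 reads or more in each of the libraries, which left Scn4a, Kcnj11 and Fxyd1. A gene was called at an adjusted p under 0.05 and a difference of at least 10 points, and 30.5% of the 1834 genes tested were called. The single-exon 3′ model of Scn4a took 57.3% of its reads in replicate 1 and 95.0% in replicate 2 (adjusted p = 7.41e-08 by Fisher's exact test). Fxyd1-213 took 61.3% and 71.9% (adjusted p = 2.30e-16 by Fisher's exact test). Kcnj11-205 took 97.0% and 97.5% and was not called (adjusted p = 0.891 by Fisher's exact test). With a minimum of 20 reads in each library Abcc9 and Atp1b1 were tested as well, and 21.9% of 3691 genes were called. Atp1b1-201 took 90.2% and 35.4% of the reads of Atp1b1, a called difference of -54.8 points (adjusted p = 1.20e-06 by Fisher's exact test). The leading model of Abcc9 differed by -26.4 points and was not called (adjusted p = 0.0632 by Fisher's exact test). The share of single-exon models over all annotated genes also differed, at 7.70% in replicate 1 and 16.5% in replicate 2, and its part in the difference of Scn4a was not tested.

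The wider pathway was counted over 81 further genes of channels, pumps, exchangers and their anchors, of which 67 had reads and 35 had enough for the test. Of these 35, 6 were called with more in replicate 1 and 1 with more in replicate 2, and their median log2 ratio was -0.41. Over all genes tested 12.9% and 5.76% were called in these directions, 18.6% in all, and the median was -0.28, so the share called in the pathway was near the background. Among 6 tested chloride channel genes Clcn4 (log2 ratio -1.37) and Ano6 (-1.23), a calcium-activated scramblase, were higher in replicate 1. Among 10 tested potassium channel genes Kcnc4 (-1.69) and Kcnab1 (-2.12), an auxiliary subunit, were. None of the 7 tested sodium-potassium pump genes was called by the exact binomial test, although 2 had an unadjusted p under 0.05. Among anchors Ank3 (1.74), which clusters sodium channels, was higher in replicate 2 and Sptbn1 (-1.66), a spectrin, higher in replicate 1. Slc12a4 (-1.80), a potassium-chloride cotransporter, was also higher in replicate 1.

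**Figure D5:**
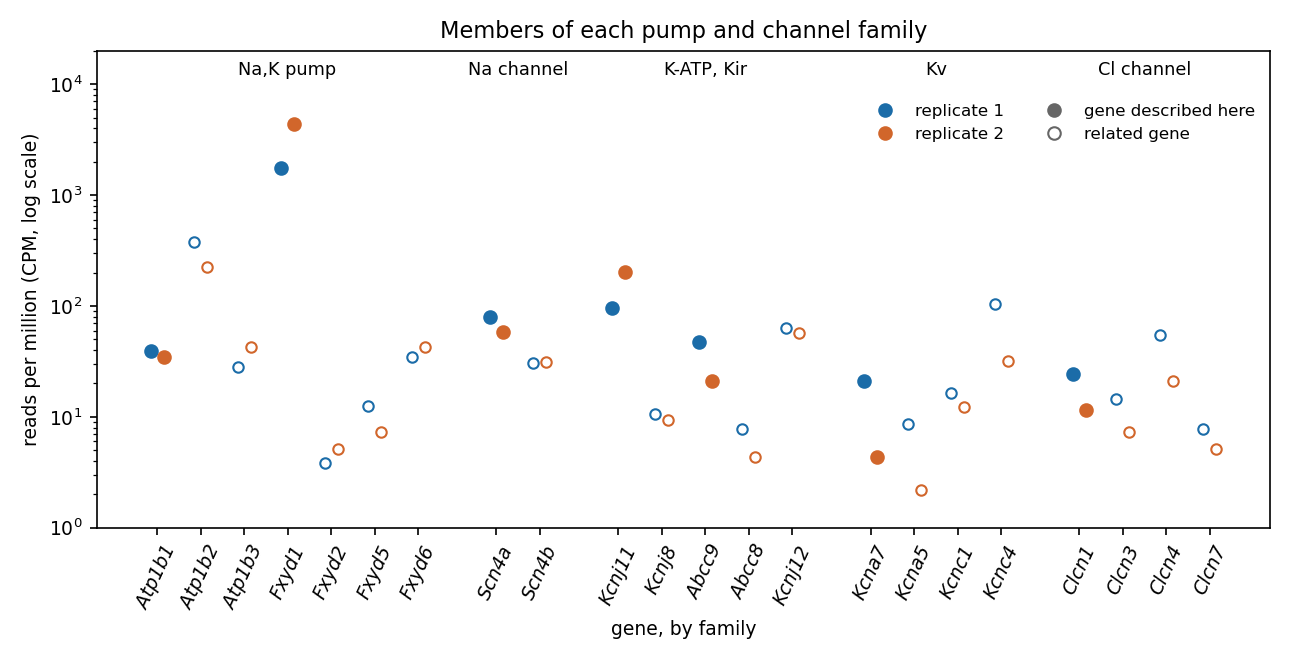
Level in CPM (log axis) of the genes described here (filled) and of some related genes of the same pump or channel family (open) in replicate 1 (blue) and replicate 2 (orange). Fxyd1 lies above the other pump genes drawn, and Atp1b1 lies below Atp1b2 in both libraries, at 39.6 and 34.9 CPM.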

How the data were processed

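Whole-tissue RNA of the gastrocnemius was read as long reads in 2 libraries. The deposited tables hold raw read counts per transcript model, 1 table per library, and the deposited annotation files hold exon positions. Per the file headers, the assembly was mm10 and the annotation GENCODE M21, and models absent from it carry TALON as their source. An aligner is not given in the sources used here. Spike-in models were left out. A gene's count was the sum of its models, without a length filter.

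With 1 library a side edgeR's quasi-likelihood test has no residual degrees of freedom, so counts were compared with an exact binomial test and isoform shares with Fisher's exact test (scipy 1.17.1), both checked on simulated data. For log2 ratios 0.5 reads were added. Models were matched between libraries by their splice junctions. TMM factors came from edgeR 4.0.16 and size factors from DESeq2 1.42.0 (genes with at least 10 reads). Models were named if they held at least 5% of a gene's reads and 5 reads in either library. Likeness of patterns to other genes was not computed, since 2 libraries cannot give it. Sequences came from GENCODE M21 transcripts and RefSeq promoters, which list 6 of the 7 genes. Of 17 unannotated single-exon models of the 7 genes, 14 share at least 1 end with an annotated exon, so model ends need not be read ends. The genes and lists were chosen with earlier results of these data known. Some related genes are not reported here.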

Additional observations from a re-analysis of the deposited data

Results flagged for a closer look

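Reads of loci that the tables assign to no annotated gene lay over or beside 4 of the 7 genes at more than the 3 reads that a count of 0 allows. Of these, the same-strand locus at Kcna7 entered the comparison above as an alternative, and the antisense loci entered none. All the antisense loci had a single exon. Over Kcna7 antisense loci held 15 reads in replicate 1 and 20 in replicate 2, against the 22 and 6 reads of the gene itself. Over Clcn1 they held 8 and 15 reads, against 25 and 16 of the gene. Over Kcnj11 they held 7 reads in replicate 2, and over Abcc9 4 reads in replicate 2. On the strand of Kcna7 a locus that overlaps its last base held 53 reads in replicate 2 in the model that reaches the gene. What these reads come from was not tested.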

How the results depend on the processing

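The number of the 7 genes called between the libraries was 4 and lay between 3 and 6 under the 9 alternatives run. The genes called were not the same in each. With reads over whole coding regions (chosen after seeing the data), Scn4a (log2 ratio -3.47) and Atp1b1 (-1.43) were called in place of Fxyd1 and Kcna7. With at least 50 reads in sum only 5 of the 7 were tested. TMM scaling gave Atp1b1 a log2 ratio of 0.10 and DESeq2 size factors 0.087 in place of -0.18, neither called. Kcna7 turned to 1.02 with its neighbouring locus joined (an alternative chosen after seeing the data). Without genomic and incomplete models 1 of 2 tested genes was called for isoform share, since Scn4a then fell below 50 reads, in place of 2 of 3. With at least 20 reads in each library 3 of 5 were called, Atp1b1 being added. The summed level of the 7 genes was 3389 CPM, between 2078 and 4699 CPM when either replicate was left out, and 805 CPM with reads over whole coding regions alone. The mean share of SUR2A reads ranged from 93.0% to 100% when either replicate was left out. Matching by transcript identifier set the 2 single-exon models of Scn4a apart. No paired analysis was possible because there is 1 group. Depth limits Kcna7, Clcn1 and the 5′ ends of Scn4a and Abcc9 in replicate 2.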
